A study of Homo sapiens with 29 samples.

Results

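The mevalonate pathway to farnesyl diphosphate was followed through 7 genes, ACAT2, HMGCS1, MVK, PMVK, MVD, IDI1 and FDPS, in human diffuse large B-cell lymphoma cells exposed to R406, a small-molecule inhibitor of the tyrosine kinase SYK. All probe sets annotated to these symbols were taken, which gave 11 of the 22215 probe sets that were not array controls, for 7 of 12165 genes; none of the 11 was also annotated to another gene. The cells were the established lines DHL6 and DHL4. Each line had R406 at 1 µM for 2, 6, 24 and 48 h and the solvent DMSO alone, which made 10 groups on 29 arrays, with 3 arrays per group except DMSO in DHL4, which had 2 here. No label states when the DMSO cells were taken or whether replicate arrays stem from different cultures. All 4 R406 times of a line were therefore set against its 1 group of DMSO arrays, and time in R406 cannot be told apart from time in culture. The p-values cover only array-to-array spread, part or all of which may be technical.

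The pathway builds isoprenoids from acetyl-CoA in the cytosol and its neighbouring compartments. ACAT2 and HMGCS1 act at its entry, MVK, PMVK and MVD turn mevalonate into isopentenyl diphosphate, and IDI1 and FDPS turn that into farnesyl diphosphate, the branch point to squalene and cholesterol, to ubiquinone and dolichol, and to the lipid anchors of small GTPases such as RAS. In animal cells the genes are known targets of SREBF2, a transcription factor released from the endoplasmic reticulum when sterol is scarce.

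RefSeq (GRCh38.p14) has an upstream sequence for 6 of the 7 genes, in 9 entries. The 250 bases before the start of HMGCS1, MVD and FDPS, genes of an early, a middle and the last step, are shown. Each of these starts is the outermost one of its gene. HMGCS1 and FDPS fell in both lines, while the fall of MVD was small and called in few comparisons. The stretches shown lie at chr5:43313413-43313662 (minus strand), chr16:88663092-88663341 (minus strand) and chr1:155308616-155308865 (plus strand). Capitals mark the CCAAT box, the letters CCAAT on the gene's strand or ATTGG where it lies on the other strand.

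HMGCS1: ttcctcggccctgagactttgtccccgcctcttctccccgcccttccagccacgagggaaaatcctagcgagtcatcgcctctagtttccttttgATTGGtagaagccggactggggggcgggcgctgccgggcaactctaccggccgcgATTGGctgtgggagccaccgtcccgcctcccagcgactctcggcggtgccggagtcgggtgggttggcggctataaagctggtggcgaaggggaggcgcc

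MVD: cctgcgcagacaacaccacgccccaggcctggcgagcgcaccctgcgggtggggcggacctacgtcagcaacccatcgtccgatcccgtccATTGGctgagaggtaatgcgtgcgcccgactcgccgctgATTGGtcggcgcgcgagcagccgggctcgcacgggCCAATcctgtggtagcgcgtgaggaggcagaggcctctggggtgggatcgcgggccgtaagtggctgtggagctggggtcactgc

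FDPS: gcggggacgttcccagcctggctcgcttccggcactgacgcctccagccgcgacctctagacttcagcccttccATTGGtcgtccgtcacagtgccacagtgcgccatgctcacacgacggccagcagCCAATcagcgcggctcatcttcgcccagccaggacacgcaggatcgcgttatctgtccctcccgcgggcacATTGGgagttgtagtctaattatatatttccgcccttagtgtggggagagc

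A CCAAT box stood in 6 of the 9 entries, against 32.0% of all 35116 RefSeq upstream sequences of that length. The 6 entries belong to 5 genes, HMGCS1, MVK, MVD, IDI1 and FDPS; the PMVK entry, 1 of HMGCS1 and 1 of IDI1 held none. In HMGCS1 the copies lay 155 to 151 and 100 to 96 bases before the start, and in FDPS 176 to 172, 122 to 118 and 51 to 47 bases before it. In 1 IDI1 entry a CCAAT and an ATTGG overlapped, at 132 to 128 and 129 to 125 bases before the start. The GC box GGGCGG, searched on both strands as were all motifs, stood in all 9 entries and in 42.6% of all sequences. The core of the sterol regulatory element, spelled here as TCACNCCAC, and the E-box CACGTG stood in none of the 9 entries, against 0.883% and 6.35% of all sequences. These are matches of letters in 1 window and say nothing of binding.

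Levels were log2 expression values per probe set, on which 1 unit is a factor of 2. Pairs of arrays of a group correlated at 0.978 to 0.996 over all probe sets, with no pair identical, and array medians ran from 3.11 to 3.27. The B cell genes MS4A1, CD79A and CD79B were bright on every array (8.16 at the lowest), PAX5 stayed at 2.51 to 3.36, near the floor of the scale, and 4 T cell genes, CD3D, CD3E, CD3G and CD2, at 2.51 to 3.42. Of the monocyte, fibroblast and endothelial genes CD14, CSF1R, FCGR1A, COL1A1, COL1A2, CDH5 and PECAM1, FCGR1A reached 4.45 and PECAM1 7.77 on their brightest array, and the others stayed at 3.70 or below.

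**Figure D1:**
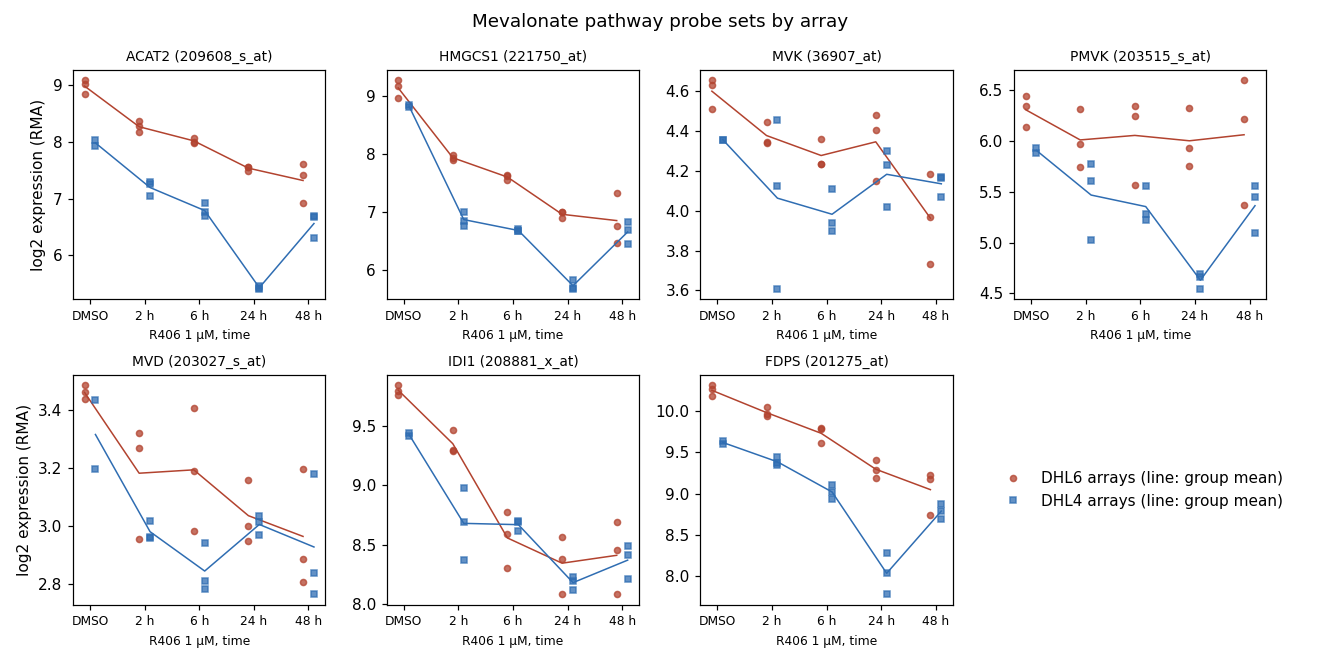
Log2 expression of 1 probe set per gene on every array (points) with group means (lines), for DHL6 (circles) and DHL4 (squares), in DMSO and after 2, 6, 24 and 48 h of R406. ACAT2, HMGCS1, IDI1 and FDPS lay below their DMSO level at every time in both lines; in DHL4 the lowest mean of ACAT2, HMGCS1, PMVK, IDI1 and FDPS was at 24 h.

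R406 was followed by lower levels of pathway genes in both lines, with the largest log2 change in HMGCS1 at every time. All 29 arrays entered 1 limma model with a mean for each of the 10 groups, and a probe set was called at a Benjamini-Hochberg adjusted p below 0.05 over all 22215 sets. Each fold change below is R406 minus DMSO on the log2 scale with its standard error (SE). In DHL6, 4 of the 11 probe sets were called lower at 2 h, 6 at 6 h, 8 at 24 h and 9 at 48 h, against 2.74%, 4.43%, 7.30% and 13.4% of all probe sets. In DHL4, 5, 7, 7 and 6 of the 11 were called lower at 2, 6, 24 and 48 h, against 5.86%, 5.44%, 14.3% and 3.42% of all probe sets. No member was called higher by limma at any of the 8 comparisons. Of all probe sets 1.63%, 2.46%, 5.11% and 6.86% were called higher in DHL6 at 2, 6, 24 and 48 h. In DHL4 these shares were 2.18%, 5.20%, 11.7% and 2.89%. No member was higher at an unadjusted limma p below 0.05 either. The share of all probe sets at that unadjusted threshold was not counted.

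All 11 probe sets had a fold change below 0 in all 8 comparisons, except that after quantile normalization of the arrays MVK 215649_s_at in DHL6 at 2 and 6 h and PMVK in DHL6 at 48 h lay just above 0. The median over the 11 was -0.45, -0.53, -0.96 and -1.18 in DHL6 at 2, 6, 24 and 48 h, against 0.01, 0.02, 0.02 and 0.04 over all probe sets. In DHL4 it was -0.46, -0.60, -1.24 and -0.84, against 0.01, 0.01, 0.04 and 0.01 over all probe sets. Every R406 array lay below every DMSO array in 8, 8, 10 and 9 of the 11 sets in DHL6 and in 9, 10, 11 and 10 of them in DHL4. The share of all probe sets separated in this way was not counted, so these counts are no result about the members. Some gaps were small, such as 0.0153 for MVD at 48 h in DHL4. The split over all probe sets depended on the scaling of arrays: at 48 h in DHL6, 2975 lower and 1524 higher calls as deposited became 3626 and 811 with each array centred on its median and 2089 and 1913 after quantile normalization. Quantile normalization gave 926 lower and 838 higher calls in place of 984 and 547 at 6 h in DHL6, and 981 and 801 in place of 1302 and 484 at 2 h in DHL4. In bulk RNA, fewer cells with a transcript and less transcript per cell cannot be told apart.

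**Figure D2:**
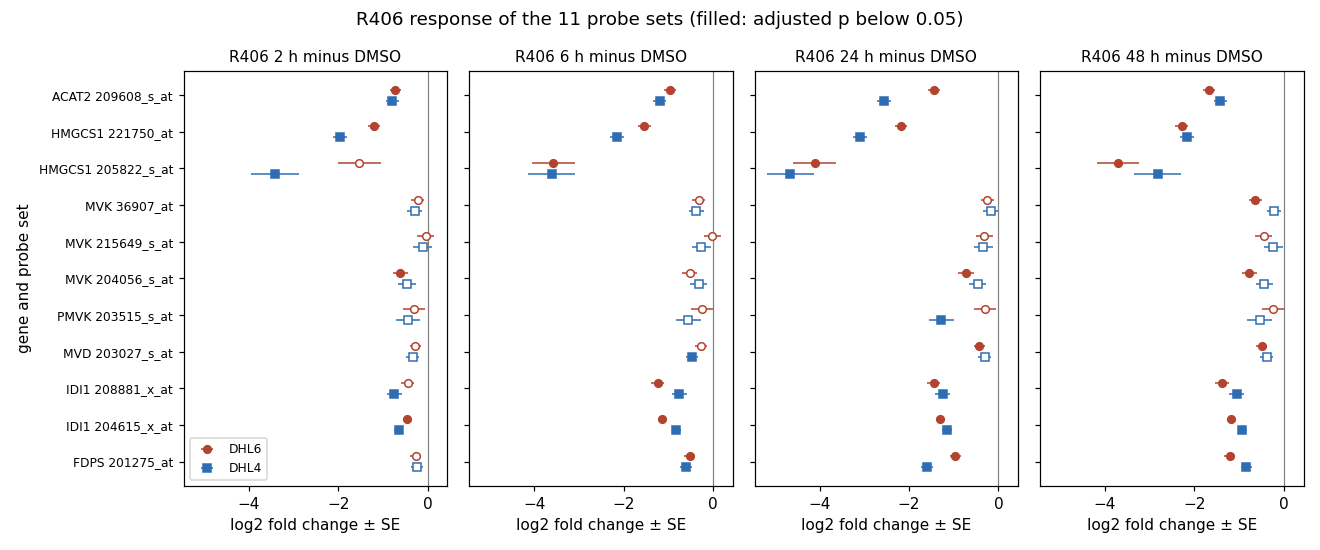
Log2 fold change (R406 minus DMSO, x axis) with its SE for the 11 probe sets (rows) at 2, 6, 24 and 48 h, in DHL6 (circles) and DHL4 (squares); filled symbols had an adjusted p below 0.05. HMGCS1 lay farthest from 0 at every time in both lines, and its set 205822_s_at reached -4.65 at 24 h in DHL4, where its arrays lay near the array medians.

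HMGCS1 (chr5:43287470-43313412), the cytosolic synthase that adds acetyl-CoA to acetoacetyl-CoA, fell most of the 7 genes in all 8 comparisons. In DHL6 its probe set 221750_at read 9.28, 9.18 and 8.97 in DMSO, 7.90, 7.94 and 7.98 at 2 h, 7.62, 7.56 and 7.64 at 6 h, 7.0, 6.89 and 7.0 at 24 h, and 6.77, 7.33 and 6.48 at 48 h. In DHL4 it read 8.81 and 8.84 in DMSO, 7.0, 6.77 and 6.86 at 2 h, 6.67, 6.71 and 6.68 at 6 h, 5.84, 5.68 and 5.69 at 24 h, and 6.70, 6.84 and 6.45 at 48 h. At every time, and in both lines, the R406 arrays were below the DMSO arrays with no overlap. The fall was already -1.20 ± 0.14 in DHL6 and -1.95 ± 0.16 in DHL4 at 2 h (adjusted p = 2.18e-06 and 4.06e-09). At 24 h it was -2.18 ± 0.14 in DHL6 and -3.09 ± 0.16 in DHL4, which is 4.53-fold and 8.53-fold lower (adjusted p = 5.20e-11 and 6.99e-14). At 48 h the values were -2.29 ± 0.14 in DHL6 and -2.17 ± 0.16 in DHL4.

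The other HMGCS1 probe set, 205822_s_at, had a lower fold change than 221750_at in all 8 comparisons, with differences of -2.04 to -0.32 on the log2 scale. In DHL6 it read 8.56, 8.61 and 8.62 in DMSO, 7.03, 7.03 and 7.14 at 2 h, 5.44, 6.10 and 3.53 at 6 h, 5.11, 4.15 and 4.20 at 24 h, and 4.19, 6.19 and 4.28 at 48 h. In DHL4 it read 7.79 and 8.12 in DMSO, 4.63, 5.22 and 3.77 at 2 h, 4.45, 4.50 and 4.09 at 6 h, 3.43, 3.20 and 3.27 at 24 h, and 5.35, 5.22 and 4.81 at 48 h. Its arrays spread widely at 6 h and 48 h in DHL6 and at 2 h in DHL4, and at 24 h in DHL4 it was near the array medians, where a further fall could not be read. Its SE of 0.48 in DHL6 and 0.53 in DHL4 left the 2 h value in DHL6 outside the threshold (-1.53, adjusted p = 0.0755), and it was called in the other 7 comparisons. At 24 h it was -4.11 in DHL6 and -4.65 in DHL4, and the size of the DHL4 value rests on those 24 h arrays near the array medians.

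**Figure D3:**
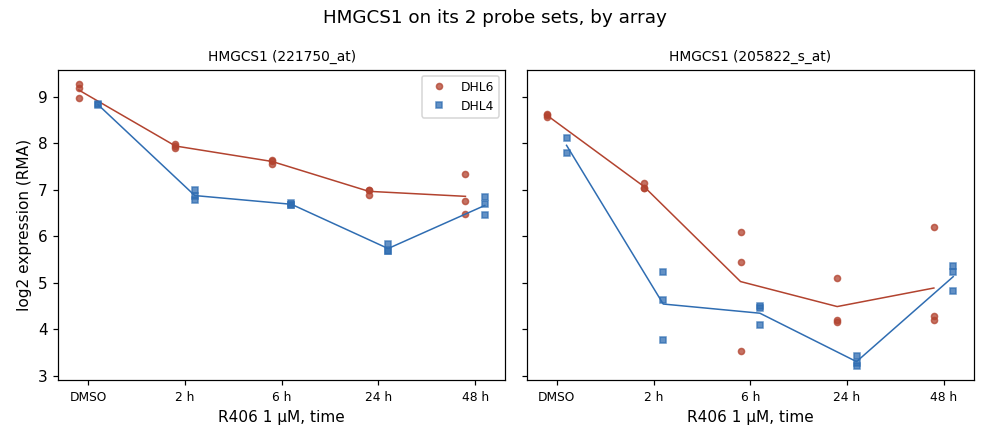
Log2 expression of HMGCS1 on probe sets 221750_at (left) and 205822_s_at (right) on every array (points) with group means (lines), in DMSO and at the 4 R406 times, for DHL6 (circles) and DHL4 (squares). Both sets were lower in R406 at all times, and 205822_s_at ranged from 3.53 to 6.10 over the 3 arrays of DHL6 at 6 h.

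ACAT2 (chr6:159762045-159779112), the cytosolic thiolase that joins acetyl-CoA units at the first step, was called lower in all 8 comparisons. In DHL6 it read 9.09, 9.02 and 8.86 in DMSO, 8.28, 8.36 and 8.17 at 2 h, 8.08, 7.99 and 8.0 at 6 h, 7.56, 7.56 and 7.49 at 24 h, and 6.93, 7.62 and 7.42 at 48 h. In DHL4 it read 8.03 and 7.94 in DMSO, 7.26, 7.29 and 7.04 at 2 h, 6.77, 6.69 and 6.92 at 6 h, 5.40, 5.45 and 5.43 at 24 h, and 6.70, 6.68 and 6.30 at 48 h. The DMSO arrays stood above all R406 arrays in both lines, and the 3 DHL4 arrays at 24 h were the lowest of all. The fold change was -0.72 ± 0.13 in DHL6 and -0.79 ± 0.15 in DHL4 at 2 h (adjusted p = 0.000931 and 0.000796), and -1.45 ± 0.13 and -2.56 ± 0.15 at 24 h (adjusted p = 1.72e-08 and 7.78e-13). At 48 h it was -1.67 ± 0.13 in DHL6 and -1.42 ± 0.15 in DHL4. ACAT1, the mitochondrial thiolase of ketone metabolism, was called lower only at 24 h in DHL4 (-1.27), and its other 7 values ran from -0.35 to 0.10.

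MVK (chr12:109573272-109598125), which phosphorylates mevalonate, has 3 probe sets. On 36907_at, DHL6 read 4.63, 4.65 and 4.51 in DMSO and 3.73, 4.18 and 3.97 at 48 h, the only time at which this set was called (-0.64 ± 0.15, adjusted p = 0.00246); after quantile normalization that call was lost (-0.45, adjusted p = 0.0811). In DHL4 the same set read 4.36 and 4.36 in DMSO and 4.02, 4.23 and 4.30 at 24 h, with fold changes of -0.37 to -0.17 over the 4 times and none called. The set 204056_s_at was called in DHL6 at 2, 24 and 48 h (-0.61, -0.73 and -0.77) and missed the threshold at 6 h (-0.53, adjusted p = 0.0697). Its 3 DHL6 DMSO arrays were 4.33, 4.18 and 3.35, so that 1 DMSO array lay among the R406 arrays, which read 3.21, 3.40 and 3.42 at 2 h and 3.36, 3.09 and 3.11 at 48 h. The call at 2 h was lost with the replicate number as a block (-0.61, adjusted p = 0.0660), after quantile normalization, and when any 1 of 5 arrays was left out (DMSO replicates 1 and 2 and all 3 replicates at 2 h); without DMSO replicate 1 of DHL6 it was -0.43 (adjusted p = 0.328). The call at 24 h was also lost without DMSO replicate 1 (-0.54, adjusted p = 0.0596). When the model held the DHL6 DMSO arrays and 1 R406 time alone, none of the 3 calls was made (adjusted p = 0.193, 0.0549 and 0.0830 at 2, 24 and 48 h). In DHL4 204056_s_at ran from -0.46 to -0.32 and was not called, and 215649_s_at was called in no comparison.

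PMVK (chr1:154924740-154942658), which adds the next phosphate, was called in 1 of 8 comparisons. In DHL4 it read 5.92 and 5.88 in DMSO, 5.61, 5.77 and 5.02 at 2 h, 5.22, 5.28 and 5.56 at 6 h, 4.69, 4.54 and 4.66 at 24 h, and 5.44, 5.55 and 5.09 at 48 h. The 24 h arrays were the lowest, at -1.27 ± 0.27 or 2.42-fold lower (adjusted p = 0.000692), and the other times gave -0.55 to -0.44. In DHL6 it read 6.34, 6.44 and 6.14 in DMSO, 6.32, 5.92 and 5.75 at 24 h, and 5.37, 6.59 and 6.21 at 48 h. There the R406 arrays overlapped the DMSO arrays, and the fold changes of -0.31 to -0.25 (SE 0.25) were within the spread.

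MVD (chr16:88651940-88663091), which decarboxylates the product of PMVK to isopentenyl diphosphate, was dim, between 2.76 and 3.48 on all arrays, around the array medians, so that its fold changes are likely understated by the floor of the scale. In DHL6 it read 3.48, 3.44 and 3.46 in DMSO, 3.16, 3.0 and 2.95 at 24 h, and 2.81, 2.89 and 3.20 at 48 h. It was called lower there at 24 h (-0.42 ± 0.13, adjusted p = 0.0244) and 48 h (-0.50 ± 0.13, adjusted p = 0.00542). In DHL4 it read 3.20 and 3.44 in DMSO and 2.78, 2.94 and 2.81 at 6 h, the only time called (-0.47 ± 0.14, adjusted p = 0.0294). The 24 h call in DHL6 was lost when any 1 of the 3 DMSO arrays or of replicates 2 and 3 at 24 h was left out, with adjusted p up to 0.104. The 6 h call in DHL4 was lost without DMSO replicate 2 (-0.35, adjusted p = 0.384) and without replicate 1 or 3 at 6 h.

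IDI1 (chr10:1039152-1056704), which converts isopentenyl into dimethylallyl diphosphate, was read by 208881_x_at and 204615_x_at; in the maker's naming, x_at marks sets whose probes can match other transcripts. On 204615_x_at DHL6 read 9.72, 9.69 and 9.70 in DMSO, 9.16, 9.23 and 9.30 at 2 h, 8.56, 8.68 and 8.46 at 6 h, 8.50, 8.29 and 8.42 at 24 h, and 8.42, 8.65 and 8.48 at 48 h. DHL4 read 9.26 and 9.36 in DMSO, 8.74, 8.72 and 8.55 at 2 h, 8.59, 8.42 and 8.48 at 6 h, 8.16, 8.14 and 8.18 at 24 h, and 8.28, 8.42 and 8.45 at 48 h. No R406 array reached a DMSO array in either line, and this set was called lower in all 8 comparisons. Its fold changes were -0.47, -1.13, -1.30 and -1.18 in DHL6 and -0.64, -0.82, -1.15 and -0.93 in DHL4 at 2, 6, 24 and 48 h (SE 0.09 in DHL6 and 0.10 in DHL4). The other set differed from it by no more than 0.20 in any comparison and missed the threshold only at 2 h in DHL6 (-0.45, adjusted p = 0.110). Its 2 h call in DHL4 (-0.74) was lost without DMSO replicate 1 of that line (-0.73, adjusted p = 0.0641).

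FDPS (chr1:155308866-155320665), farnesyl diphosphate synthase, was called lower at 6, 24 and 48 h in both lines and at 2 h in neither. In DHL6 it read 10.27, 10.32 and 10.19 in DMSO, 9.97, 10.05 and 9.94 at 2 h, 9.62, 9.80 and 9.78 at 6 h, 9.29, 9.41 and 9.19 at 24 h, and 9.18, 9.22 and 8.74 at 48 h. In DHL4 it read 9.61 and 9.64 in DMSO, 9.37, 9.44 and 9.35 at 2 h, 9.11, 9.01 and 8.94 at 6 h, 8.04, 8.28 and 7.77 at 24 h, and 8.70, 8.78 and 8.88 at 48 h. All R406 arrays lay below all DMSO arrays, yet the 2 h values of -0.27 ± 0.12 in DHL6 and -0.24 ± 0.13 in DHL4 missed the threshold (adjusted p = 0.310 and 0.348). At 24 h it was -0.96 ± 0.12 in DHL6 and -1.59 ± 0.13 in DHL4, and at 48 h -1.21 ± 0.12 and -0.84 ± 0.13 (adjusted p = 5.59e-08 and 0.000159). At 2 h FDPS had reached 28.2% of its 24 h log2 change in DHL6 and 14.8% in DHL4. The shares were 55.3% and 63.2% for HMGCS1 221750_at and 49.5% and 30.8% for ACAT2. For IDI1 they were 31.0% and 59.9% on 208881_x_at and 36.4% and 55.8% on 204615_x_at. These shares rest on means and were not tested against each other.

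Steps between neighbouring R406 times were tested within each line, and the difference of these steps between lines was not tested. In DHL6 the step between 2 and 6 h was called for 3 probe sets, HMGCS1 205822_s_at (-2.05) and IDI1 208881_x_at and 204615_x_at (-0.79 and -0.66), against 2.06% of all sets called lower; the HMGCS1 call was lost without replicate 3 at 2 h or at 6 h (-1.30 in the second case). The step between 6 and 24 h was called lower for ACAT2 (-0.48), HMGCS1 221750_at (-0.64) and FDPS (-0.44), against 1.92% of all sets. Of these the ACAT2 call was lost without any 1 of the 6 arrays and the FDPS call without any 1 of 4 (replicates 2 and 3 at 6 h, 1 and 3 at 24 h), with adjusted p up to 0.112 and 0.143. Between 24 and 48 h limma called no member in DHL6, where 6.04% of all sets were called in either direction. At an unadjusted limma p below 0.05 there were 2 member sets, and the share of all sets at that threshold was not counted. The lowest DHL6 mean lay at 48 h for ACAT2, HMGCS1 221750_at, FDPS, MVD and all MVK sets, and at 24 h for PMVK, IDI1 and HMGCS1 205822_s_at. At 48 h in DHL6 replicate 2 was the highest array in 9 of the 11 sets, by a median of 0.33 over the other arrays. Without it the count at 48 h against DMSO was again 9, HMGCS1 221750_at was -2.52, and 1 set, MVK 36907_at, was called between 24 and 48 h (-0.49, adjusted p = 0.0481).

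In DHL4 the step between 2 and 6 h was called for FDPS alone (-0.37, adjusted p = 0.0498), against 2.91% of all sets called lower, and that call was lost without any 1 of the 6 arrays. Between 6 and 24 h 6 sets fell further, with steps of -1.36 for ACAT2, -0.99 for FDPS, -0.95 for HMGCS1 221750_at, -0.72 for PMVK and -0.49 and -0.33 for the IDI1 sets, against 11.5% of all sets. Without replicate 1 at 6 h 3 of them were called, ACAT2, HMGCS1 221750_at and FDPS. The PMVK call was lost without any 1 of the 6 arrays (adjusted p up to 0.153) and the IDI1 208881_x_at call also without replicate 3 at 6 h or at 24 h. Between 24 and 48 h 5 sets rose, ACAT2 by 1.13, HMGCS1 221750_at by 0.93, FDPS by 0.76, PMVK by 0.73 and HMGCS1 205822_s_at by 1.83, a step taken from 24 h arrays near the array medians, against 12.2% of all sets called higher; the PMVK call was lost without any 1 of 5 of the 6 arrays, the exception being replicate 3 at 48 h. At 48 h ACAT2 kept 55.7% of its 24 h change in DHL4, FDPS 52.5% and HMGCS1 221750_at 70.0%, against 115%, 126% and 105% in DHL6.

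The difference between the lines was tested directly, as the DHL6 response minus the DHL4 response. At 24 h it was called above 0, a smaller fall in DHL6, for ACAT2 (1.11 ± 0.20, adjusted p = 0.000230), HMGCS1 221750_at (0.91 ± 0.21, adjusted p = 0.00301) and FDPS (0.63 ± 0.18, adjusted p = 0.0160), 3 of 11 sets against 7.66% of all sets. PMVK at 24 h had 0.97 ± 0.37 and missed the threshold (adjusted p = 0.0900), HMGCS1 205822_s_at had 0.54 ± 0.72, and the IDI1, MVK and MVD sets lay between -0.26 and 0.03. At 2, 6 and 48 h limma called no member, while 1.31%, 5.58% and 3.99% of all sets were called in either direction. At the looser threshold of an unadjusted limma p below 0.05 there were 2, 3 and 1 members. The share of all sets at that unadjusted threshold was not counted, so these 3 counts are no result about the members. HMGCS1 221750_at was nearest at 2 h (0.75 ± 0.21, adjusted p = 0.0873) and 6 h (0.60 ± 0.21, adjusted p = 0.109). The FDPS call was lost without DMSO replicate 2 of DHL4 (0.62, adjusted p = 0.0656) or without 24 h replicate 3 of DHL4 (0.50, adjusted p = 0.0569).

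**Figure D4:**
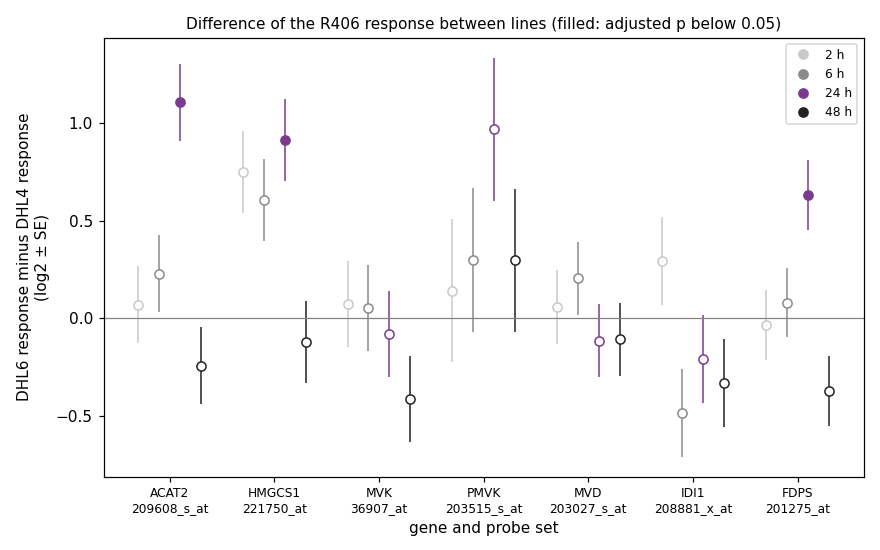
Difference of the R406 response, DHL6 minus DHL4 (log2, y axis), with its SE for 1 probe set per gene (x axis) at 2, 6, 24 and 48 h; filled points had an adjusted p below 0.05. The 24 h points of ACAT2 (1.11), HMGCS1 (0.91) and FDPS (0.63) were the filled ones.

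The lines also differed in DMSO. All 11 sets were above 0 for DHL6 minus DHL4, and 3 were called, ACAT2 (1.00, adjusted p = 1.15e-05), FDPS (0.64, adjusted p = 0.000880) and IDI1 204615_x_at (0.39, adjusted p = 0.00692), against 8.44% of all sets called higher. At 24 h of R406 the order of the lines was the same for ACAT2 and FDPS. ACAT2 averaged 7.54 at 24 h in DHL6 and 5.43 in DHL4, and FDPS 9.30 and 8.03. The IDI1 call was lost without DMSO replicate 1 of DHL4 (0.34, adjusted p = 0.103).

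Genes downstream and around the pathway were counted in 3 lists, with 1 probe set per gene and the same calls over all 22215 sets. Of 9 measured enzymes between squalene and cholesterol, 7, 7, 8 and 8 were called lower in DHL6 at 2, 6, 24 and 48 h and 8 at each time in DHL4, with none higher. Of all probe sets 2.74%, 4.43%, 7.30% and 13.4% were called lower in DHL6 and 5.86%, 5.44%, 14.3% and 3.42% in DHL4. Quantile normalization added TM7SF2 as higher at 24 h in DHL6, and the counts lower were 6 to 8 under the other scalings. Their median fold change was -0.70, -0.88, -1.13 and -1.44 in DHL6 and -1.23, -1.40, -1.53 and -1.0 in DHL4. DHCR7, the last reductase of the route, was -1.67 and -3.15 at 24 h in DHL6 and DHL4, SQLE, the squalene epoxidase, -1.13 and -1.86, CYP51A1, the lanosterol demethylase, -1.16 and -1.90, and SC5D, a sterol desaturase, -1.66 and -1.19. TM7SF2, a sterol reductase, was called in none of the 8 comparisons as deposited.

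The list of SREBP control genes was mixed. INSIG1, which holds the SREBP complex in the endoplasmic reticulum and is itself an SREBP target, was called lower in all 8 comparisons (-1.20 in DHL6 and -0.82 in DHL4 at 24 h). Of the 7 genes, 1 was called lower at every time in DHL6, INSIG1, and 1, 3, 4 and 1 in DHL4. Called higher were 0, 1, 2 and 0 in DHL6 and 0, 1, 2 and 0 in DHL4. Of all probe sets 2.74%, 4.43%, 7.30% and 13.4% were lower and 1.63%, 2.46%, 5.11% and 6.86% higher in DHL6. In DHL4 5.86%, 5.44%, 14.3% and 3.42% were lower and 2.18%, 5.20%, 11.7% and 2.89% higher. A count of 1 gene of 7 at 48 h in DHL6 is near the share of 13.4% and is no result about the list. The higher ones were SCAP, the escort of SREBP, in DHL6 at 6 and 24 h (0.59 and 0.49), INSIG2 in DHL4 at 6 and 24 h, and MBTPS1, a protease that cuts SREBP, at 24 h in both lines (0.70 in DHL6 and 1.14 in DHL4). At 24 h in DHL4 SCAP was called lower (-0.92). SREBF2 was called in 1 comparison, 6 h in DHL4 (-0.76), and that call was lost after quantile normalization; SCAP at 24 h in DHL6 lost its call under both other scalings. As deposited, SREBF1 was called lower in DHL4 at 6 and 24 h (-0.97 and -1.01) and at no time in DHL6. Centring added SREBF1 as lower at 24 and 48 h in DHL6 (-0.61 and -0.58). Quantile normalization added INSIG2 and MBTPS1 as higher at 48 h in DHL6 (0.56 and 0.65).

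Of 13 measured users of isoprenoids, 1, 2, 3 and 4 were called lower in DHL6 and 3, 2, 6 and 1 in DHL4, and 1 higher, GGPS1, the geranylgeranyl diphosphate synthase, at 6 h in DHL4 (0.91). The shares of all probe sets given for the SREBP list apply here too. A count of 1 gene of 13 is near those shares and is no result about the list. That was the count lower at 2 h in DHL6 and at 48 h in DHL4, and the count higher at 6 h in DHL4. PDSS1, which makes the ubiquinone side chain, was called lower in 7 of 8 comparisons (-0.94 in DHL6 and -2.76 in DHL4 at 24 h). ICMT, which methylates prenylated proteins, was lower in 5 and COQ2, a ubiquinone enzyme, in 4. The COQ2 call at 6 h in DHL6 (-0.66) was lost after quantile normalization (-0.52, adjusted p = 0.102). ZMPSTE24, a protease of prenylated proteins, was called lower in 3, all of them lost after quantile normalization. FNTA, the alpha subunit shared by protein prenyltransferases, was called in none, with -0.22 to 0.13.

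**Figure D5:**
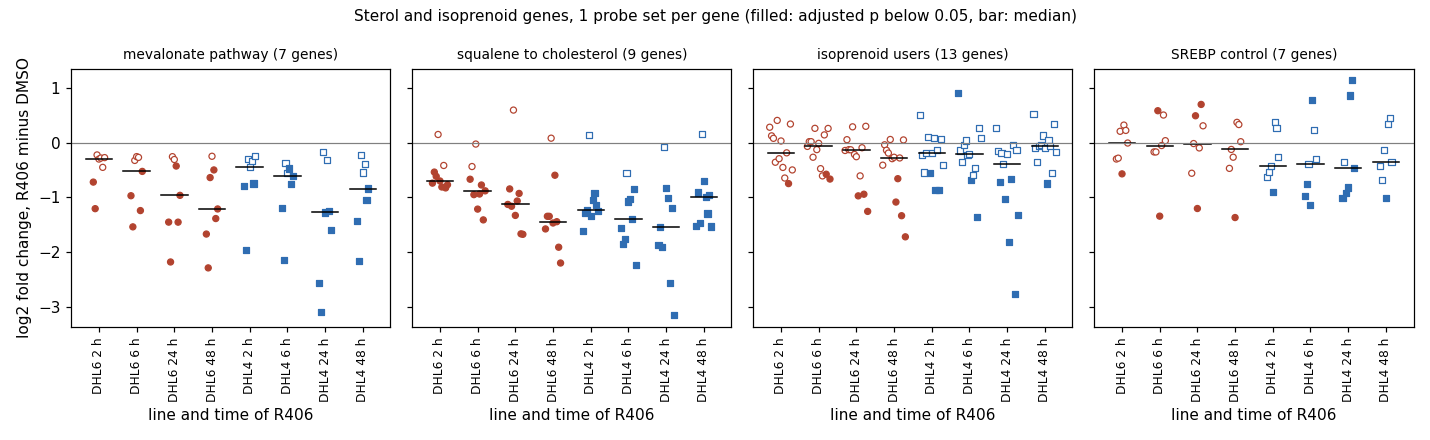
Log2 fold change (R406 minus DMSO, y axis) for 7 mevalonate genes, 9 enzymes from squalene to cholesterol, 13 isoprenoid users and 7 SREBP control genes (points, 1 probe set per gene; filled, adjusted p below 0.05; bar, median) at 2, 6, 24 and 48 h in DHL6 (circles) and then DHL4 (squares). The medians of the first 2 lists at 24 h in DHL4 were -1.27 and -1.53, and those of the isoprenoid users and SREBP control genes -0.39 and -0.46.

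The probe sets whose course was most like the mean of the 7 genes were sought by Pearson's r over the 10 group means, each line centred on its own mean, among 7802 sets called in at least 1 of the 8 comparisons; the points share the DMSO arrays and the values are a description. The highest were CYP51A1 216607_s_at (0.98), KPNB1 208975_s_at (0.98), BCLAF1 201101_s_at (0.97), SRSF10 (0.97), KPNB1 217027_x_at (0.96), BCLAF1 214499_s_at (0.96), CTBP1 (0.96), EBP (0.96), CALML4 (0.96) and DHCR7 (0.96). CYP51A1, EBP and DHCR7 belong to the sterol branch, KPNB1 is a nuclear import receptor and SRSF10 a splicing factor. KPNB1 208975_s_at was -1.09 in DHL6 and -1.60 in DHL4 at 24 h. The representative set of each gene is part of that mean, so the r of a member is partly with itself and is not to be read beside the others. It was 0.99 for HMGCS1 221750_at, 0.98 for ACAT2, 0.95 for FDPS, 0.94 for IDI1 208881_x_at, 0.84 for PMVK, 0.83 for MVD and 0.67 for MVK 36907_at.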

How the data were processed

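RNA of DHL6 and DHL4 cells was hybridised to Affymetrix human gene expression arrays in plate format, and the deposited values were log2 expression per probe set after RMA, per the submitters' processing notes; no version of RMA was stated, nor which arrays it took together. RMA compresses dim probe sets, so their fold changes are understated, and the number of arrays limits precision. Of 22277 probe sets 62 were controls. Symbols came from GEO's platform annotation and were updated through Entrez identifiers (19724 sets had 1 symbol, 19713 of them matched, 568 had several and 1923 none). The log2 values were fitted with limma 3.58.1 in R 4.3.3 (lmFit on 10 group means over 29 arrays, contrasts, eBayes, 19 residual and 5.15 prior degrees of freedom), checked on simulated data, with Benjamini-Hochberg adjustment per contrast over 22215 sets. Tables were made with Python 3.11.15, pandas 2.3.3 and numpy 2.4.6. The named probe sets were all sets of the 7 genes, up to 4 examples of each list by absolute mean change and the 10 sets most like the members' mean; FNTA, GGPS1, TM7SF2, SCAP and SREBF2 were named after their values were seen. Where 1 set stood for a gene it was the brightest with a single symbol. Members and lists were chosen with earlier results of these data known. Some genes of the pathway are not reported here. Upstream sequences came from RefSeq. Alternatives were array centring, quantile normalization, a filter at a mean log2 level of 4 (7894 sets kept), 1 set per gene, single-symbol sets, a trended robust prior, only the compared groups, the replicate number as a block, and each array left out.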

Additional observations from a re-analysis of the deposited data

Results flagged for a closer look

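The fall of 3 probe sets at 24 h differed between the lines by a test of the difference itself, limma's contrast of the DHL6 response minus the DHL4 response. It was 1.11 on the log2 scale for ACAT2, 0.91 for HMGCS1 221750_at and 0.63 for FDPS, each a smaller fall in DHL6. The other HMGCS1 set, 205822_s_at, had 0.54 ± 0.72 and was not called. The FDPS call was lost without 24 h replicate 3 of DHL4 (0.50, adjusted p = 0.0569). In ACAT2 and FDPS the DMSO level was also higher in DHL6 (1.00 and 0.64). No group of arrays was large enough for a test of single outlying arrays.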

How the results depend on the processing

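Over the 88 values of 11 probe sets in 8 comparisons with DMSO, 1132 alternative values were computed. None of the 52 called values changed sign, and 7 lost their call under at least 1 alternative: IDI1 208881_x_at at 2 h and MVD at 6 h in DHL4, and in DHL6 MVD at 24 h, MVK 204056_s_at at 2, 24 and 48 h and MVK 36907_at at 48 h. Sign changes were found in 12 cases, all of uncalled values. They were MVK 215649_s_at after quantile normalization in DHL6 at 2 h (0.0266) and 6 h (0.0362), and with single arrays left out, ranging from -0.37 to 0.16 and from -0.0956 to 0.076 there and in DHL4 from -0.35 to 0.13 at 2 h and from -0.47 to 0.007 at 48 h. PMVK at 48 h in DHL6 gave 0.0547 after quantile normalization and ranged from -0.51 to 0.10 with single arrays left out. The cause of these changes was not tested.

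With 1 probe set per gene, which leaves 7 sets, 2 were called lower at 2 h and 5 at 24 h in DHL6, 3 at 2 h in DHL4, 1 between 2 and 6 h in DHL6 and 2 in DHL4. When the fit held no other groups, and so fewer arrays, the lines' responses differed for 2 sets at 2 h and 1 at 6 h, 6 sets differed in DMSO, and 0 were called between 2 and 6 h in either line and 1 between 6 and 24 h in DHL6. Quantile normalization gave 1 line difference at 6 h and 2 calls between 2 and 6 h in DHL4. For that last step centring gave 0, and the level filter, single-symbol sets and the trended prior gave 2 each. With single arrays left out the counts were 0 to 0 for it, 3 to 5 between 6 and 24 h in DHL4, 1 to 2 between 6 and 24 h and 0 to 1 between 24 and 48 h in DHL6. Centring shifted the median of all sets by -0.11 at 48 h in DHL6 and by less than 0.10 elsewhere.

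Deviations of same-numbered arrays from their group means correlated at -0.21 to 0.22 (20 correlations). With 2 or 3 arrays per group, and the same DMSO arrays used at every time, these values cannot show whether the numbers pair arrays. The replicate block left 3 called lower at 2 h in DHL6 (4 without the block), changed no other count of members and took the call from MVK 204056_s_at at 2 h in DHL6 (-0.61, adjusted p = 0.0660). Over all sets, quantile normalization gave 124 lower and 150 higher line differences at 2 h (92 and 198 as deposited) and 457 and 418 at 48 h (611 and 275), 946 lower and 1116 higher sets between 2 and 6 h in DHL4 (647 and 1593), and 690 and 527 between 24 and 48 h in DHL6 (1040 and 302), where centring gave 1201 and 152. Dim sets such as MVD and 2 of the 3 MVK sets limit what could be detected.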
